A study of Mus musculus with 2 samples.

Results

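The genes described here are 10 negative regulators of MAP kinase signaling, namely the dual specificity phosphatases Dusp1, Dusp2, Dusp4, Dusp5, Dusp6 and Dusp10, the Sprouty genes Spry1 and Spry2 and the Spred genes Spred1 and Spred2. They were picked by symbol, with earlier results of these data known, and all 10 were present among the 24421 genes listed for each library. RNA was sequenced from Th1 cells of C57BL/6J background, with 1 library labelled WT (Chi3l1+/+) and 1 library labelled Chi3l1 KO (Chi3l1-/-), from animals that lack the gene for chitinase 3-like 1 in every cell. In both, naïve CD4 T cells selected as CD4+CD25-CD62L+ were activated with antibodies against CD3 and CD28 fixed to the plate and skewed with IL-12, IL-2 and an antibody against IL-4. The mice of the study were 6 to 8 weeks old and of both sexes, while the number and sex of those behind each library, the day of harvest and any restimulation before RNA isolation were not given in the sources used here. With 1 library per genotype (n = 1), no difference between the genotypes could be tested, and every interval given here covers counting error only.

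MAP kinases such as ERK carry the signal of the T cell receptor to the nucleus, and active ERK turns on genes whose products shut the pathway down again. DUSP phosphatases do this at the end of the cascade, by removing phosphate from both the threonine and the tyrosine of the activated kinase. Sprouty and Spred proteins act further up, where they restrain the activation of Ras and Raf. Because many of these genes are induced by the signal they limit, their mRNA levels in T cells can vary with recent receptor signaling, which was not measured here.

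The targeted gene, listed as Chil1, had 1 read in the library labelled WT and 103 reads in the library labelled KO, which goes against the labels. Exchanged labels and transcript left from the targeted gene cannot be told apart in these values. The samples are therefore called by their labels throughout, and every direction below rests on them and would turn if they were exchanged. Reads rebuilt from the deposited values summed to 70660340 and 62998005 in the libraries labelled WT and KO. The normalized counts summed to 68449000 and 60913100, so the deposited scale did not make the totals equal, and scaling to equal totals was not tried. The 6 listed CD4 T cell markers were well expressed in both libraries, at log2 values from 11.94 to 14.94 and from 11.91 to 14.86. All 6 were lower in the library labelled KO, and their summed normalized count was 110080 in the library labelled WT and 91706 in the library labelled KO. Genes of other cells were also present. All 6 B cell markers were higher in the library labelled KO, and their summed normalized count was 1101 in the library labelled WT and 2077 in the library labelled KO, with no marker at 0. The neutrophil markers summed to 80.3 and 4.79, with 1 and 5 of the 6 listed markers at 0, and the monocyte or macrophage markers to 537 and 467, with 2 of 7 at 0 in each. The dendritic cell markers summed to 73.6 and 122, with 3 and 2 of 6 at 0, the CD8 T cell markers to 812 and 807, and the NK cell markers, among them Eomes, which Th1 cells also express, to 2073 and 2703. The part of these cells in the values below was not tested. In such bulk RNA, fewer cells of a type and less RNA per cell cannot be told apart.

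Promoter windows were available for 9 of the 10 genes, all except Dusp4, as the 250 bases before the RefSeq start (GRCm38.p6). Those of 4 genes are shown, each from 5′ to 3′ on the strand of the gene, because these are the 2 genes that were higher in the library labelled KO, Dusp5 (chr19:53528895-53529144, plus strand) and Spry2 (chr14:105896820-105897069, minus strand), and a family relative of each that was lower, Dusp1 (chr17:26508473-26508722, minus strand) and Spry1 (chr3:37639697-37639946, plus strand). Capitals mark CRE, CRE half-site and CArG box matches.
Dusp5: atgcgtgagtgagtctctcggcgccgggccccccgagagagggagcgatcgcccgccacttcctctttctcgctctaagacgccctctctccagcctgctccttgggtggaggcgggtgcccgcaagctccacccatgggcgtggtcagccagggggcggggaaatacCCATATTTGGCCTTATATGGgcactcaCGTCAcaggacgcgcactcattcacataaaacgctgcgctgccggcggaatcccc
Dusp1: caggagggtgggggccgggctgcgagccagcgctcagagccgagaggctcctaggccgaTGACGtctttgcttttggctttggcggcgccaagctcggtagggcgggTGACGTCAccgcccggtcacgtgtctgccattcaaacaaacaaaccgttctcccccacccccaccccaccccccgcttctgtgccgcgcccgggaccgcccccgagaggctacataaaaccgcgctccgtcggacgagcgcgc
Spry2: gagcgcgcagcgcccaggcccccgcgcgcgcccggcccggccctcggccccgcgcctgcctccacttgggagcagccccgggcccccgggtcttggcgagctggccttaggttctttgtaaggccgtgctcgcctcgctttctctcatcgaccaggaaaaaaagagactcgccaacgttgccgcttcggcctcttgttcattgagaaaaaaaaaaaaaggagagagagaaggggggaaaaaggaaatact
Spry1: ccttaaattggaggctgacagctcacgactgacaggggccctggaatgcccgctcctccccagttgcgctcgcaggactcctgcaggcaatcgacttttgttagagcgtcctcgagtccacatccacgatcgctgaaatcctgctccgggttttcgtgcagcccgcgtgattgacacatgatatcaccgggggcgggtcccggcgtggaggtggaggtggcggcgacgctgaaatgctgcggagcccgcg
The Dusp5 window held 2 CArG boxes, the element bound by serum response factor, starting 82 and 72 bases before the start. A CArG box was found in 1.47% of the 32851 promoter windows and in no other window of the 9 genes. The Dusp1 window held the full CRE TGACGTCA, the element bound by CREB, 143 bases before the start, and this occurs in 1.55% of all windows. CRE half-sites, spelled TGACG and contained in each full CRE, were found in Dusp1, Dusp5 and Spred2 and in 17.8% of all windows. Neither the Spry1 nor the Spry2 window held any of these elements. The AP-1 site TGANTCA, the ETS site CCGGAAG and TATAAA were in none of the 9 windows and in 6.75%, 6.91% and 12.4% of all windows. GC boxes, spelled GGGCGG and left in lower case above, were in 7 of the 9 windows, all except Dusp6 and Spry2, and in 32.7% of all windows. Both strands were searched, and a match describes letters and not bound factors.

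All 10 genes were expressed, but over a wide range. For comparison between genes, normalized counts were divided by the annotated exon length in kilobases. On this scale Spry1 was highest, with 7057 normalized counts per kilobase in the library labelled WT and 4579 in the library labelled KO. It made up 49.0% and 43.5% of the sum over the 10 genes. Dusp2 followed with 3073 and 2145. Dusp4 had 1115 and 944, Dusp5 had 1081 and 1270, and Spred2 had 960 and 779. Dusp4 and Dusp5, next to each other in the library labelled WT, did not differ there beyond their 95% Poisson intervals, whereas in the library labelled KO Dusp5 stood 1.35-fold above Dusp4 and the intervals were apart. Lower in the order were Dusp1 with 411 and 301, Dusp6 with 391 and 256, Dusp10 with 196 and 137 and Spred1 with 108 and 68.8. Dusp1 and Dusp6 were not separable by their intervals in the library labelled WT. The length used joins all annotated exons, 3311 bases for Dusp1 and 3132 for Dusp6. The single transcripts used for GC content had 1990 and 2796 bases, so the gap between these genes depends on the choice of length. Spry2 was lowest in both, with 16.7 and 46.4. All other neighbors in this order had separate intervals, and Dusp4 and Dusp5 were the only pair to change places between the libraries. The plot of values by library shows these positions on the deposited scale, without the division by length.

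**Figure D1:**
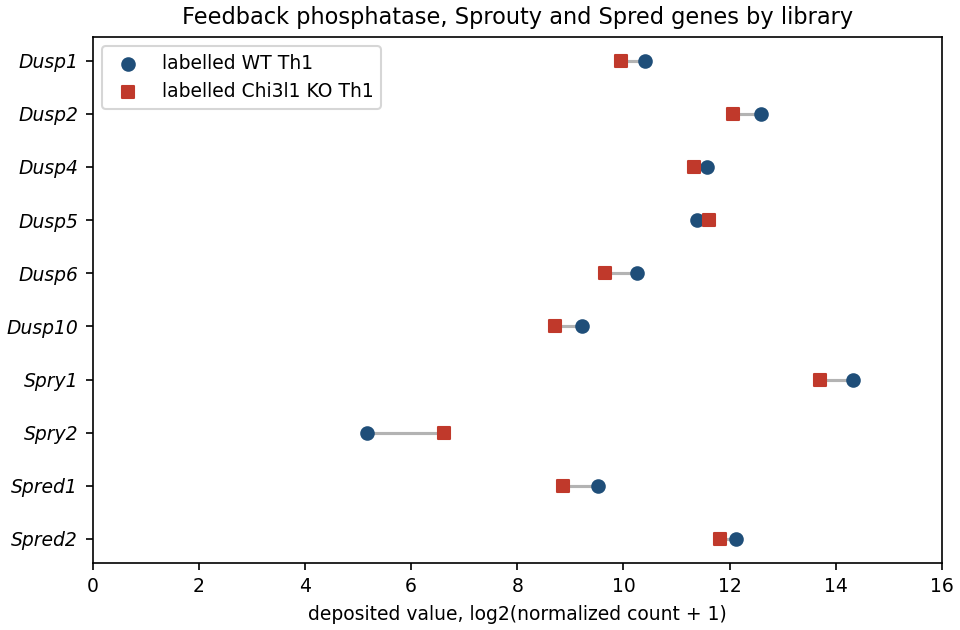
Deposited values of the 10 genes on the log2(normalized count + 1) scale (horizontal axis) in the library labelled WT Th1 (blue circles) and the library labelled Chi3l1 KO Th1 (red squares), with a grey line joining the 2 values of a gene and no error bars, as there is 1 library each. Squares lie to the left of circles for 8 genes, and to the right for Dusp5 and Spry2, and Spry2 is the least expressed gene in both.

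The phosphatases that act in the nucleus on activated MAP kinases were mostly lower in the library labelled KO. Dusp2 (RefSeq gene 13537, chromosome 2, 127336159 to 127338377), which is best known from activated lymphocytes, had a log2 value of 12.59 in the library labelled WT and 12.07 in the library labelled KO. This is a log2 difference of -0.52 (95% exact binomial interval from -0.57 to -0.46), or 30.2% fewer normalized counts. Dusp1 (gene 19252, chromosome 17, 26505591 to 26508472), an immediate early phosphatase of p38, JNK and ERK, went from 10.41 to 9.96, a difference of -0.45 (from -0.57 to -0.33). Dusp4 (gene 319520, chromosome 8, 34807610 to 34819894), a close relative of Dusp1, was 11.58 and 11.34, and its difference of -0.24 (from -0.32 to -0.17) was the smallest of the lower genes. Dusp5 (gene 240672, chromosome 19, 53529145 to 53541809), which acts on ERK alone and holds it in the nucleus, differed from these 3 in direction. It was 11.39 in the library labelled WT and 11.62 in the library labelled KO, with 2760 and 3247 rebuilt reads and a log2 difference of 0.23 (from 0.16 to 0.31). The ratio of Dusp2 to Dusp5 per kilobase was thus 2.84 in the library labelled WT and 1.69 in the library labelled KO. The exons of Dusp5 share 547 bases with an annotated antisense gene, AC137853.2, and the use of strand in counting is not given in the sources used here, so reads of the 2 cannot be told apart. The exons of Dusp1 share 11 bases with Ergic1 on the opposite strand.

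The other 2 phosphatases were lower as well. Dusp6 (gene 67603, chromosome 10, 99263231 to 99267489), the cytoplasmic phosphatase that is specific for ERK and a standard transcriptional readout of ERK activity, was 10.26 in the library labelled WT and 9.65 in the library labelled KO. Its log2 difference of -0.61 (95% exact binomial interval from -0.74 to -0.48) was the largest of the 6 phosphatases in absolute size. Dusp10 (gene 63953, chromosome 1, 184034381 to 184075636), which prefers JNK and p38 to ERK, was 9.22 and 8.71, a difference of -0.52 (from -0.70 to -0.34). Dusp10 and Dusp2 thus differed almost equally between the libraries, and the ratio of Dusp2 to Dusp10 per kilobase was 15.7 in both. Dusp5 had 2.77 times the level of Dusp6 per kilobase in the library labelled WT and 4.97 times in the library labelled KO. Summed per kilobase, the 6 phosphatases were at 6267 and 5051 normalized counts, a log2 difference of -0.31.

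Spry1 (gene 24063, chromosome 3, 37639947 to 37644599), the Sprouty gene induced in T cells by receptor stimulation, had a log2 value of 14.32 in the library labelled WT and 13.70 in the library labelled KO. With 21171 and 13762 rebuilt reads, its log2 difference of -0.62 had the narrowest counting interval of the 10 genes, from -0.66 to -0.59. Its exons share 710 bases with Gm42922 on the opposite strand. Spry2 (gene 24064, chromosome 14, 105891947 to 105896819) went the other way, from 5.17 to 6.61. This rests on 36 reads in the library labelled WT and 100 reads in the library labelled KO, and the log2 difference of 1.45 had an interval from 0.91 to 2.06. Spry2 was a small part of the Sprouty mRNA in both libraries, with 0.236% and 1.003% of the Sprouty level per kilobase, and the sum of both genes differed by -0.61 on the log2 scale. Spry1 exceeded Spry2 per kilobase 422-fold in the library labelled WT and 98.7-fold in the library labelled KO.

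The Spred genes were both lower in the library labelled KO. Spred1 (gene 114715, chromosome 2, 117121071 to 117182279), which brings the Ras inhibitor neurofibromin to the membrane, was 9.52 and 8.87, with a log2 difference of -0.65 (95% exact binomial interval from -0.82 to -0.48), the lowest difference of the 10 genes. Spred2 (gene 114716, chromosome 11, 19924442 to 20024026), its more abundant relative here, was 12.12 and 11.81, a difference of -0.30 (from -0.36 to -0.24). Per kilobase Spred2 was 8.88-fold above Spred1 in the library labelled WT and 11.3-fold above it in the library labelled KO.

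**Figure D2:**
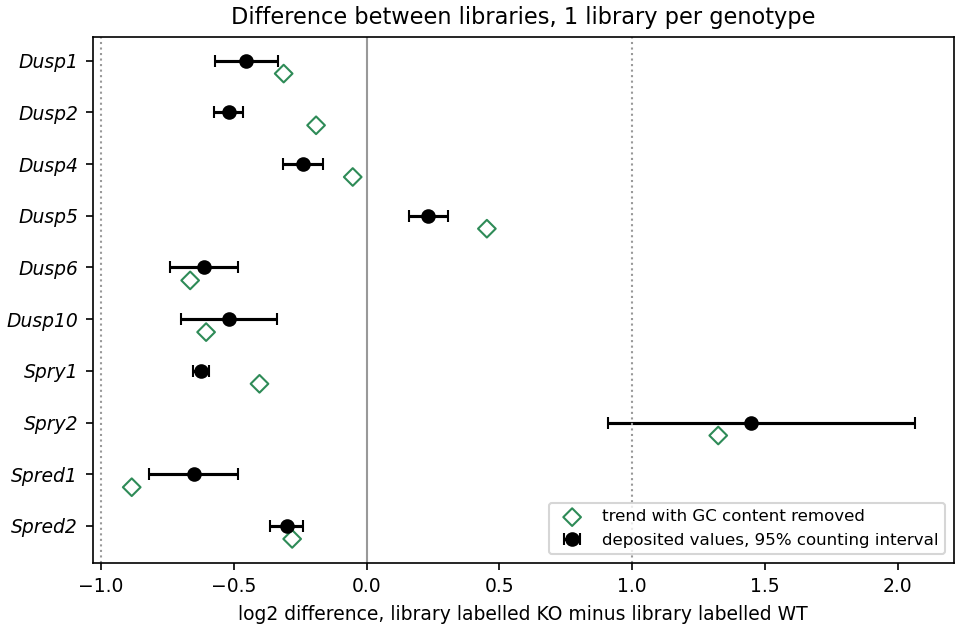
Log2 difference of each gene, library labelled KO minus library labelled WT (horizontal axis), from the deposited values (black points, with bars for the 95% exact binomial interval, counting error only) and after subtracting the median of genes of similar GC content (open green diamonds). Dotted lines mark 2-fold. Of the 10 genes, 8 lie left of 0 in both versions, and Spry2 at 1.45 is the only one past a dotted line.

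As a group, 8 of the 10 genes were lower in the library labelled KO, with a median log2 difference of -0.49. With the labels exchanged, the same values would read as 8 higher and 2 lower, with a median of 0.49 and with Spry2 at -1.45. Over the 14666 genes above 0 in both libraries, 52.0% were lower and the median was -0.003. The 9 genes other than Spry2 were at a log2 value of 8 or higher in each library. Of them 8 were lower, with a median of -0.52, beside 51.2% of the 8886 genes at that level, whose median was -0.011. Scaling the libraries to Actb, which was lower in the library labelled KO, left 8 of the 10 genes lower and moved the share at that level to 38.4%. The sizes were modest. None of the 10 genes was at least 2-fold lower, where the share of all genes was 5.81%, and Spry2 alone was at least 2-fold higher, where it was 4.70%. These shares rest on 1418 genes lower and 1147 higher, and scaled to Actb the split was 1184 lower and 1475 higher. Of the 9 genes at 8 or higher, none was past 2-fold in either direction, where the shares of all genes at that level were 0.461% for higher and 0.743% for lower. At a 1.5-fold threshold, Dusp6, Spry1 and Spred1 were lower, which is 3 of 10 beside 11.4% of all genes and 3 of 9 beside 6.29% of the genes at 8 or higher. Spry2 was the only gene at least 1.5-fold higher, beside 9.60% of all genes, and none of the 9 was, beside 3.95% at their level. After removal of a trend with GC content, described further on, 3 of the 10 genes were again at least 1.5-fold lower. These were now Dusp6, Dusp10 and Spred1, beside 9.56% of all genes and 3.29% of the genes at 8 or higher. Of all genes, 8273 were at 0 in both libraries.

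The scatter of genes with similar levels puts single values in context. Among the 500 genes nearest in mean log2 value, a difference as large in either direction was seen in 5.60% for Spry1, in 7.80% for Dusp6, in 8.80% for Spry2, in 10.2% for Spred1 and in 10.4% for Dusp2. For Dusp1 and Dusp10 these shares were 21.8% and 25.4%, for Spred2 32.4%, and for Dusp5 and Dusp4 45.4% and 46.0%. The differences of Spred2, Dusp5 and Dusp4 were thus of a size that many genes of their level had. For the larger value of Spry2, 8.31% of the 1793 genes within 1 log2 unit of its mean were at least 2-fold higher.

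**Figure D3:**
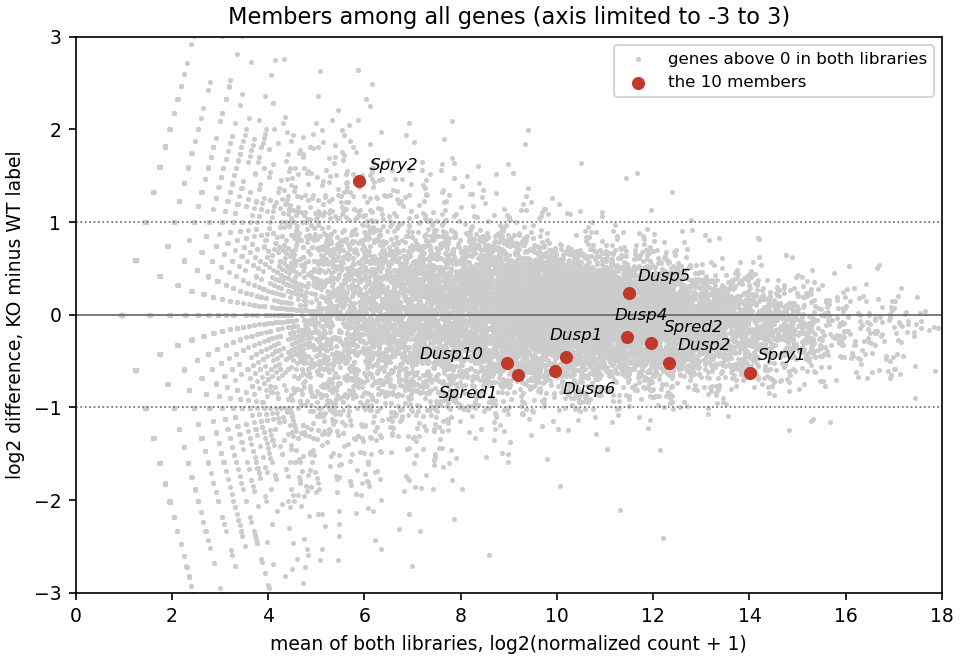
Log2 difference, library labelled KO minus library labelled WT (vertical axis, with more extreme genes outside the plot), by the mean log2(normalized count + 1) of both libraries (horizontal axis), with the 10 genes in red and the genes above 0 in both libraries in grey. Dotted lines mark 2-fold. The scatter narrows as levels rise, and Spry2 sits at a low level where many genes spread past 2-fold, while Spry1 sits below most genes at its level.

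Differences between these libraries followed the GC content of the transcripts. Over 8579 genes at 8 or higher in each library, the median log2 difference went from 0.24 in the lowest of 20 bins of GC content to -0.46 in the highest. The 10 genes had a GC content from 41.2% in Spred1 to 59.2% in Dusp2, with a median of 53.1%. With the median of each gene's bin subtracted, the same 8 genes were still lower in the library labelled KO, and their median with Dusp5 and Spry2 included was -0.30. The GC-rich genes came closer to 0, with Dusp2 at -0.19, Dusp4 at -0.05, Dusp1 at -0.31 and Spry1 at -0.40. Of the 8 lower genes, those of lower GC content moved away from 0 or changed little, with Spred1 at -0.88, Dusp6 at -0.66, Dusp10 at -0.60 and Spred2 at -0.28. Spry2, with a GC content of 46.2%, went from 1.45 to 1.32. Dusp5, a GC-rich gene that was higher, went to 0.45, and 93.5% of the 428 other genes of its GC bin had a lower or equal difference. Of the genes in the bins of Spred1, Dusp6 and Dusp10, 0.701%, 1.64% and 3.27% were as low as these genes or lower. The same share was 7.01% for Spry1, 14.3% for Dusp1, 16.1% for Spred2, 23.6% for Dusp2 and 41.1% for Dusp4. The bins hold genes of all levels from 8 upward and are not matched for level. Among the 500 genes nearest in level, the shares in either direction for Spred1, Dusp6 and Dusp10 were 10.2%, 7.80% and 25.4%, without removal of the trend.

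**Figure D4:**
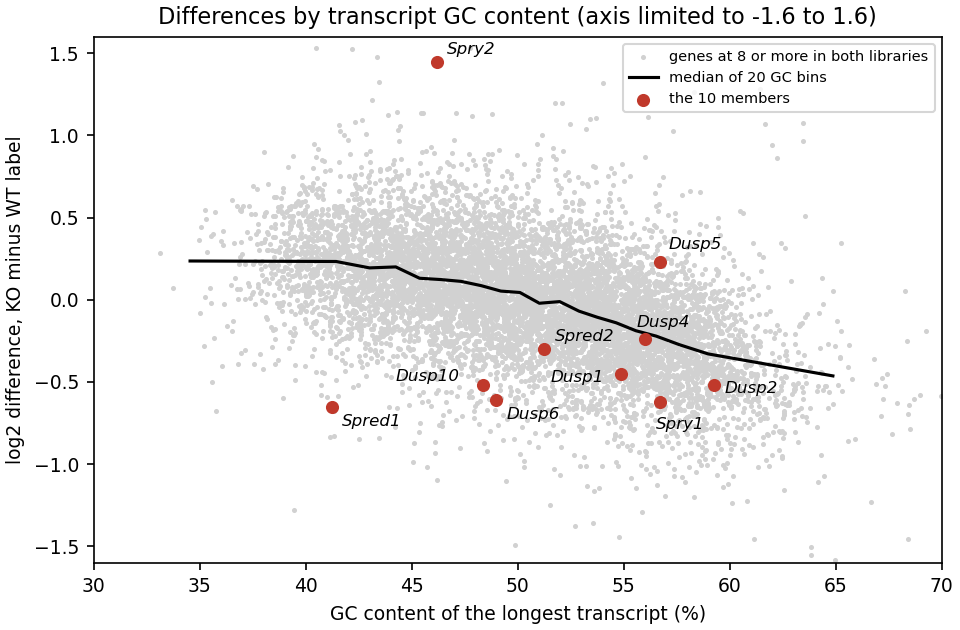
Log2 difference, library labelled KO minus library labelled WT (vertical axis, with more extreme genes outside the plot), by the GC content of the longest transcript in percent (horizontal axis), for genes at a log2 value of 8 or higher in each library (grey) and the 10 genes (red), with the median of 20 GC bins as a black line. Spred1, Dusp6 and Dusp10 lie well below the line, Dusp4 lies close to it, and Dusp5 and Spry2 lie above it.

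The other genes of the pathway were compared by list, each with counts and a median only. Of the 2 expressed genes among Spry3, Spry4 and Spred3, Spry4 was at least 2-fold lower in the library labelled KO, at 6.53 and 5.35 from 94 and 41 reads, with a log2 difference of -1.18 (95% exact binomial interval from -1.77 to -0.66). Spred3 was 7.24 and 6.61, a difference of -0.63, and Spry3 was listed at 0 in both libraries. Among the expressed Sprouty and Spred genes, Spry2 was therefore the only one that was not lower in the library labelled KO. The 4 other phosphatases of MAP kinases had 3 genes lower and a median of -0.46, and 2 lower and a median of -0.16 with the GC trend removed. At least 1.5-fold lower were 2 of the 4, beside 11.4% of all genes, and 0 with the GC trend removed, beside 9.56%. These 2 had no more than 51 reads in either library. The 2 genes at 8 or higher in each library, Dusp7 and Dusp16, were split, with 1 lower and a median of -0.03. Dusp7, a cytoplasmic ERK phosphatase, was 11.70 and 11.45, a difference of -0.26 that was 0.02 with the GC trend removed. Dusp16 had a difference of 0.19, and Dusp9, with 51 and 31 reads, had -0.70. The 15 more distant dual specificity phosphatases had no common direction, as 5 were higher and 5 lower among the 10 above 0 in both libraries, with a median of -0.08. In this list Dusp11, an RNA phosphatase and the most abundant, had 0.003, Styx, a relative without catalytic activity, had -0.39, and Dusp14 was 8.19 and 7.37, a difference of -0.81. Dusp27 was counted as at least 2-fold higher from 7 reads against 0, and Dusp26 as at least 2-fold lower from 0 reads against 5.

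The genes of the ERK cascade, in which most of the 10 genes act, were evenly split. Of the 16 genes of the ERK cascade 8 were higher and 8 lower in the library labelled KO, with a median log2 difference of -0.03 and none past 2-fold. With the GC trend removed 9 were lower and 6 higher, with a median of -0.11. Mapk3, which encodes the kinase ERK1, was 12.56 and 11.82, a difference of -0.75 (95% exact binomial interval from -0.81 to -0.69) that was -0.48 with the GC trend removed. Hras had -0.36. The JNK and p38 cascade had 8 of 10 expressed genes lower, the same count as the feedback genes, with a median of -0.11, and its most abundant genes Map2k7 and Mapk14 had -0.26 and -0.12. Mapk13, a p38 gene with 69 and 42 reads, had -0.71. With the GC trend removed 7 of the 10 were lower and the median was again -0.11. Map2k7, Mapk14 and Mapk13 were then at -0.069, -0.055 and -0.57. The 9 kinases activated by MAP kinases had 4 genes lower and a median of 0.005, with Rps6ka1 at -0.08 and Mknk2 at -0.60. With the GC trend removed 2 of the 9 were lower, the median was 0.20, Rps6ka1 turned to 0.20 and Mknk2 was at -0.14. The genes that switch Ras off, as GTPase activating proteins, were split into 4 higher and 4 lower with a median of -0.18, and Rasal3, Rasa3 and Rasal1 among them had -0.38, -0.39 and -0.94. With the GC trend removed 6 of the 8 were lower, the median was -0.15, and the 3 named genes had -0.11, -0.32 and -0.47.

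The genes that ERK signaling is known to induce early had the largest median difference after the other Sprouty and Spred genes. Of these 18 genes 15 were lower in the library labelled KO and 3 were higher, with a median of -0.58, and 14 were lower with a median of -0.31 once the GC trend was removed. At the 1.5-fold threshold 9 of the 18 were lower, beside the 11.4% of all genes given above. With the GC trend removed 4 of the 18 were, beside 9.56% of all genes. Of the 18 genes, 15 were at 8 or higher in each library, where the shares of all genes at that level were 6.29% and 3.29%. The counts of 9 and 4 were not limited to these 15 genes, as both take in Ccnd1, so they are not matched to these shares. Egr3, a transcription factor induced by the T cell receptor, was 15.24 and 14.41, a difference of -0.82 that was -0.80 with the GC trend removed. Ccnd1, the gene of cyclin D1, was at least 2-fold lower, at 6.02 and 4.95 from 66 and 31 reads, with an interval from -1.76 to -0.46 around -1.07. Myc, the most abundant gene of the list, was 17.23 and 17.11, a difference of -0.12. Over all 84 genes of the 8 lists, 1 was at least 2-fold higher and 3 were at least 2-fold lower, beside 4.70% and 5.81% of all genes. The 1 higher was Dusp27, and the 3 lower were Dusp26, Spry4 and Ccnd1. Of the 84 genes, 5 were at 0 in both libraries.

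**Figure D5:**
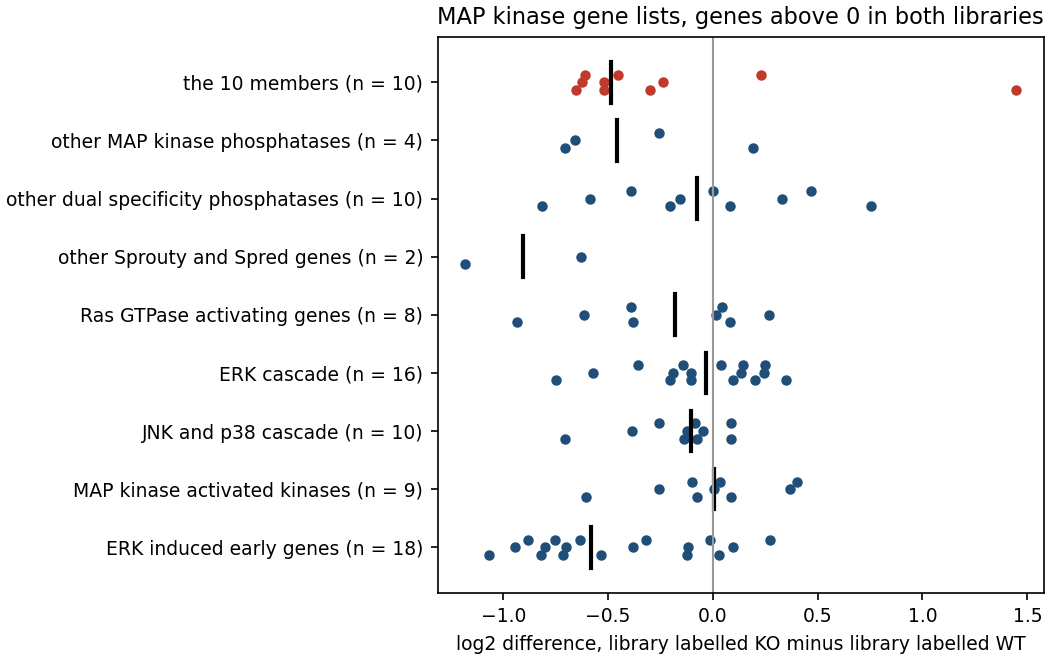
Log2 difference, library labelled KO minus library labelled WT (horizontal axis), of each gene above 0 in both libraries (points, shifted vertically to separate them), for the 10 genes (red) and 8 lists of MAP kinase pathway genes (blue), with the median of each list as a black bar. The bars of the 10 genes and of the early genes lie at -0.49 and -0.58, and that of the ERK cascade lies at -0.03. Those of the other Sprouty and Spred genes and of the other MAP kinase phosphatases lie at -0.91 and -0.46. With the GC trend removed, which is not drawn, the medians of the 10 genes, the early genes and the ERK cascade were -0.30, -0.31 and -0.11.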

How the data were processed

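The authors prepared libraries from polyadenylated RNA with the SENSE mRNA-Seq kit, mapped paired reads with TopHat, and used edgeR on counts of unique and multiple alignments with a global normalization, and the submitters' processing notes name mm10. The deposited tables give 1 log2 value per gene, taken to be log2 of 1 plus a normalized count, since after undoing the log 99.9% and 99.8% of low values fell within 0.1 of whole multiples of a step (0.969 and 0.967, the worth of 1 read in the library labelled WT and the library labelled KO). Rebuilt reads are values divided by the step, and 3 reads correspond to log2 values of 1.97 and 1.96. The main counts over all genes took all 24421 listed genes, without a floor. The difference was the value of the library labelled KO minus that of the library labelled WT. Intervals are exact binomial (Clopper-Pearson) at 95%, or Poisson for single levels, and cover counting error only. Gene positions are from RefSeq (GRCm38.p6), and GC content (found for 96.0% of the genes that reached a log2 value of 1 in either library) and exon lengths are from GENCODE M21. Multiple alignments were counted, so near-identical genes can share reads.

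Named genes were the 10 members, and from each other list, among those reaching a log2 value of 5 in either library, the genes past 2-fold, the 2 of highest mean and the 1 of largest difference. Dusp26 and Dusp27 were named after their values were seen. A gene under this rule is not reported here. Members and lists were chosen with earlier results of these data known. Of 9 CD4 T cell markers 6, and of 7 neutrophil markers 6, were in the tables. Among the Th1 markers, the summed normalized count was 41099 in the library labelled WT and 50075 in the library labelled KO. The alternatives were an offset of 0.1, median-ratio, quantile and Actb scaling, removal of the GC trend, thresholds of 1.5-fold and 3-fold, and log2 floors of 4 in at least 1 library and of 8 in both. The 1.5-fold threshold with the GC trend removed was added after the data were seen. Scripts were tested on simulated data. Analyses ran in Python 3.11.15 with scipy 1.17.1, numpy 2.4.6 and pandas 2.3.3, and plots were drawn with matplotlib 3.10.9.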

Additional observations from a re-analysis of the deposited data

How the results depend on the processing

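The direction of each of the 10 genes was the same under the 5 alternatives of scale and normalization that apply to it. Of the 50 resulting differences, 37 stayed inside the gene's counting interval and 13 did not. Spred1 at -0.88 was farthest below 0 and Dusp4 at -0.05 was nearest to it, both with the GC trend removed. That removal also brought the median of the 10 genes from -0.49 to -0.30. Scaling to Actb raised the median of all genes by 0.10, and Dusp4 was then at -0.12. At 3-fold, 0 of the 10 genes were higher, and likewise 0 with a floor of 8 in both libraries, which Spry2 did not reach, and at 1.5-fold 3 were lower. Over all genes, the counts higher and lower, 1147 and 1418 at 2-fold, were 2345 and 2795 at 1.5-fold, 573 and 733 at 3-fold, 476 and 630 with a floor of 4 in at least 1 library, and 41 and 66 with a floor of 8 in both. They were 1295 and 1278 with quantile normalization and 1475 and 1184 scaled to Actb. A 1.5-fold threshold with the GC trend removed, an alternative chosen after seeing the data, gave 2066 and 2235 over all genes, 3 of the 10 genes lower, and 2 higher and 8 lower in the other lists. Over the 84 genes of the other lists, the counts of 1 higher and 3 lower became 2 and 21 at 1.5-fold, beside 9.60% and 11.4% of all genes. At 3-fold 1 was lower. A floor of 4 left 0 of them higher, and a floor of 8 left 0 higher and 0 lower. Floors remove genes with few reads, and the cause of the other shifts was not tested. No paired analysis was possible because each genotype has 1 sample. Low counts limit Spry2, Spry4, Ccnd1, Dusp9 and Mapk13 most.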
